A study of Mus musculus with 8 samples.

Results

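Bone morphogenetic protein (BMP) ligands and their secreted antagonists were followed through colon epithelium and stroma in 9 genes, chosen by name among the 32285 genes of each library: the ligands Bmp2, Bmp3, Bmp4, Bmp5 and Bmp7 and the antagonists Grem1, Chrd, Fst and Mgp. BMP ligands bind paired serine/threonine kinase receptors, whose signal passes through SMAD proteins to target genes such as the Id genes. In the gut, BMP signalling is known to be low at the crypt base, where stem cells divide, and high toward the surface, where epithelial cells differentiate. Gremlin 1 (Grem1), chordin (Chrd), follistatin (Fst) and matrix Gla protein (Mgp) bind ligands outside the cell and keep them from their receptors, follistatin acting mainly on activins.

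The study names young adult male C57BL/6 mice as the source of the colon cells, and the labels name no allele or treatment. The libraries were made with a 3′ droplet kit that counts unique molecular identifiers (UMIs), 1 for each captured mRNA molecule. Assembloids are organoids set into Matrigel droplets with cultured primary stromal cells and grown in medium without added Wnt, CHIR-99021, R-spondin or noggin, and they gave 2 libraries of stroma (cells negative for EpCAM) and 2 of epithelium. Organoid epithelium (2 libraries) was grown without stromal cells in medium that holds all of these factors, the BMP antagonist noggin included, and tissue epithelium (2 libraries) came from the mouse colon with no culture. The organoid and assembloid groups therefore differ both in stromal cells and in medium. The study also describes an orbital shaker and a longer enzyme digestion for assembloids, and these differences cannot be told apart. The study names 2 mice as the source of the stroma. It describes the 2 single-cell libraries of a group as biological replicates, and the labels do not say which mouse gave which library, so p-values measure the spread between libraries.

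The 8 libraries held 115502 barcodes, of which 77108 had at least 500 genes and at most 10% mitochondrial UMIs, and the kept cells of a library summed to between 36970661 and 187583982 UMIs. The share of barcodes kept was unequal, at 38.7% and 25.4% in tissue epithelium and 94.8% and 96.1% in stroma. It was 89.3% and 55.1% in assembloid and 81.4% and 55.3% in organoid epithelium. The part of this difference in the comparisons was not tested. Any pair of libraries shared 13 to 141 cell barcodes, at most 0.981% of the smaller library. Cells were sorted by marker lists that hold none of the 9 genes. By this sorting the stromal cells were mostly fibroblasts: 7529 of 9020 cells in replicate 1 and 8507 of 9048 in replicate 2. Stromal replicate 1 also held 762 cells with squamous keratins (8.45%), against 38 (0.420%) in replicate 2. The assembloid epithelial libraries were not free of fibroblasts, with 550 and 454 such cells, so epithelial values below are from cells inside an epithelial gate, which kept 19948 and 6576 cells of assembloids, 4853 and 7537 of organoids and 4651 and 4281 of tissue. Levels are UMIs of a gene per 1000000 UMIs of the summed cells (CPM). They are per molecule and not scaled by gene length, since the kit reads 3′ ends. In sums of cells, fewer cells that express a gene and less RNA in each cannot be told apart.

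The genes lie on 7 chromosomes of the mouse genome (GRCm38, the build of the files), 3 of them on chromosome 2: Bmp2 at chr2:133552159-133562885, Grem1 at chr2:113746164-113758646 and Bmp7 at chr2:172868012-172940321. In the RefSeq promoter table, 4 of the 9 genes (Bmp4, Bmp5, Grem1 and Chrd) had an entry. The 250 bases before the start of Bmp5 and Grem1 are shown because these genes stood on opposite sides of the fibroblast difference described below. Capitals mark GGCGCC, a GC-rich letter string to which BMP-responsive SMADs can bind.
Bmp5, chr9:75775115-75775364, plus strand: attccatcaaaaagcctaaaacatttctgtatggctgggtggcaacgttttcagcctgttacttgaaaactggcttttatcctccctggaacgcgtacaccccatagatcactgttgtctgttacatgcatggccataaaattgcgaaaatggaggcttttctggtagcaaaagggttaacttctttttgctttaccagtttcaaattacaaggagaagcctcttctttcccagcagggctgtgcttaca
Grem1, chr2:113758649-113758898, minus strand: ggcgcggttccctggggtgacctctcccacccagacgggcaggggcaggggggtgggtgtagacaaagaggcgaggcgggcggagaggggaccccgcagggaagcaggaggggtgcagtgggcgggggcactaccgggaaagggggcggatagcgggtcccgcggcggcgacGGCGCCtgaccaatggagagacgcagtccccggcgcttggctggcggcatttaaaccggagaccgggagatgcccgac
The Grem1 window was 72.0% G and C and held GGCGCC once, as did the Chrd window. The Bmp5 window was 42.8% G and C and held no GGCGCC, nor did that of Bmp4, at 63.2%. Over all 32851 promoters of the same length the median was 52.4%, and 9.59% held GGCGCC on either strand. The SMAD palindrome GTCTAGAC (0.167% of promoters), the forkhead string TGTTTAC (3.17%), the GLI string TGGGTGGTC (0.225%) and TATAAA (12.4%) were in none of these 4 windows on either strand. The short SMAD box GTCT, found in 82.9% of promoters on either strand, was in all 4, with 1 in Bmp4, Bmp5 and Chrd each and 4 in Grem1.

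Grem1, Mgp and Bmp4 were the members with the most UMIs in assembloid fibroblasts. The first comparison asked in which compartment of the assembloid each gene was found, and all 9 were higher in the fibroblasts of the stromal libraries than in the epithelial cells of the epithelial libraries (edgeR quasi-likelihood test, adjusted p under 0.05), where 73% of 19385 genes passed in either direction and 33.8% were higher. Their median log2 fold change was 6.14, against -0.12 over all genes. Per the file headers, stroma was counted with Cell Ranger 6.0.1 and epithelium with 7.1.0, which counts intronic reads by default. The assembloid epithelial libraries hold fibroblasts too, counted with the same version as their epithelium, and the comparison was repeated inside them. There 7 of the 9 were again higher in fibroblasts, but Bmp2 and Bmp3 were lower, and all 9 passed with and without the library as a block, where 50.3% and 47.6% of 17885 genes did.

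Inside these libraries the fibroblasts held Grem1 at 918 and 741 CPM, Mgp at 804 and 1781 CPM and Bmp4 at 98.7 and 105 CPM. They held Bmp5 at 13.7 and 18.5 CPM, Bmp7 at 2.85 and 6.54 CPM, Chrd at 5.18 and 3.92 CPM and Fst at 15.5 and 9.53 CPM. Each of these levels lay above the epithelial levels given next, with log2 fold changes from 4.34 for Fst to 7.78 for Mgp.

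Among the antagonists, Grem1 stood at 787 and 669 CPM in the fibroblasts of the stromal libraries and at 5.68 and 1.19 CPM in the epithelial gate (log2 fold change 7.52 ± 0.96 SE, adjusted p = 0.0018). Mgp, a small matrix protein that binds BMP2 and BMP4 and also limits calcification, stood at 715 and 694 CPM in fibroblasts and at 6.28 and 4.16 CPM in epithelium (6.91 ± 0.36, adjusted p = 0.00017). Both genes were at like levels in the 2 stromal libraries, and both epithelial libraries lay far below. Fst was at 45.7 and 22.5 CPM against 0.738 and 0.350 CPM (5.77 ± 0.59, adjusted p = 0.00091). Chrd was the least abundant antagonist, at 4.45 and 4.09 CPM against 0.156 and 0.113 CPM (4.80 ± 0.39, adjusted p = 0.00049).

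Bmp4, the main BMP ligand of gut mesenchyme, was at 176 and 243 CPM in fibroblasts and at 0.852 and 0.151 CPM in epithelium (8.47 ± 0.92, adjusted p = 0.0011). Bmp7 was at 9.95 and 16.2 CPM against 0.0781 and 0.113, and Bmp5 at 10.1 and 11.9 CPM against 0.185 and 0.0851. Both were less abundant in fibroblasts than Bmp4 but also far above the gated assembloid epithelium. Their log2 fold changes were 6.95 ± 0.42 and 6.14 ± 0.47, with adjusted p of 0.00023 and 0.00042. Bmp3, an atypical member that opposes other BMPs at their receptors, was at 24.96 and 8.49 CPM in fibroblasts and at 2.90 and 3.24 CPM in epithelium (2.29 ± 0.53, adjusted p = 0.012). Its stromal replicate 1 lay well above replicate 2, and its call was lost when either epithelial library was left out (adjusted p = 0.14 in each case). Inside the epithelial libraries the direction turned, with 0 and 3 UMIs of Bmp3 in 550 and 454 fibroblasts (adjusted p = 0.012).

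Bmp2 was found in both compartments, and which of them was higher depended on the libraries. It was at 73.3 and 67.4 CPM in the fibroblasts of the stromal libraries and at 38.0 and 43.9 CPM in epithelial cells, and these levels did not overlap (0.64 ± 0.13, adjusted p = 0.0082). With a stricter gate the difference was 0.14 (adjusted p = 0.37), and without stromal replicate 1 it was 0.61, with the call lost (adjusted p = 0.075). The fibroblasts inside the epithelial libraries held Bmp2 at 11.9 and 8.22 CPM, below the epithelium around them (-2.18, adjusted p = 0.00062).

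**Figure D1:**
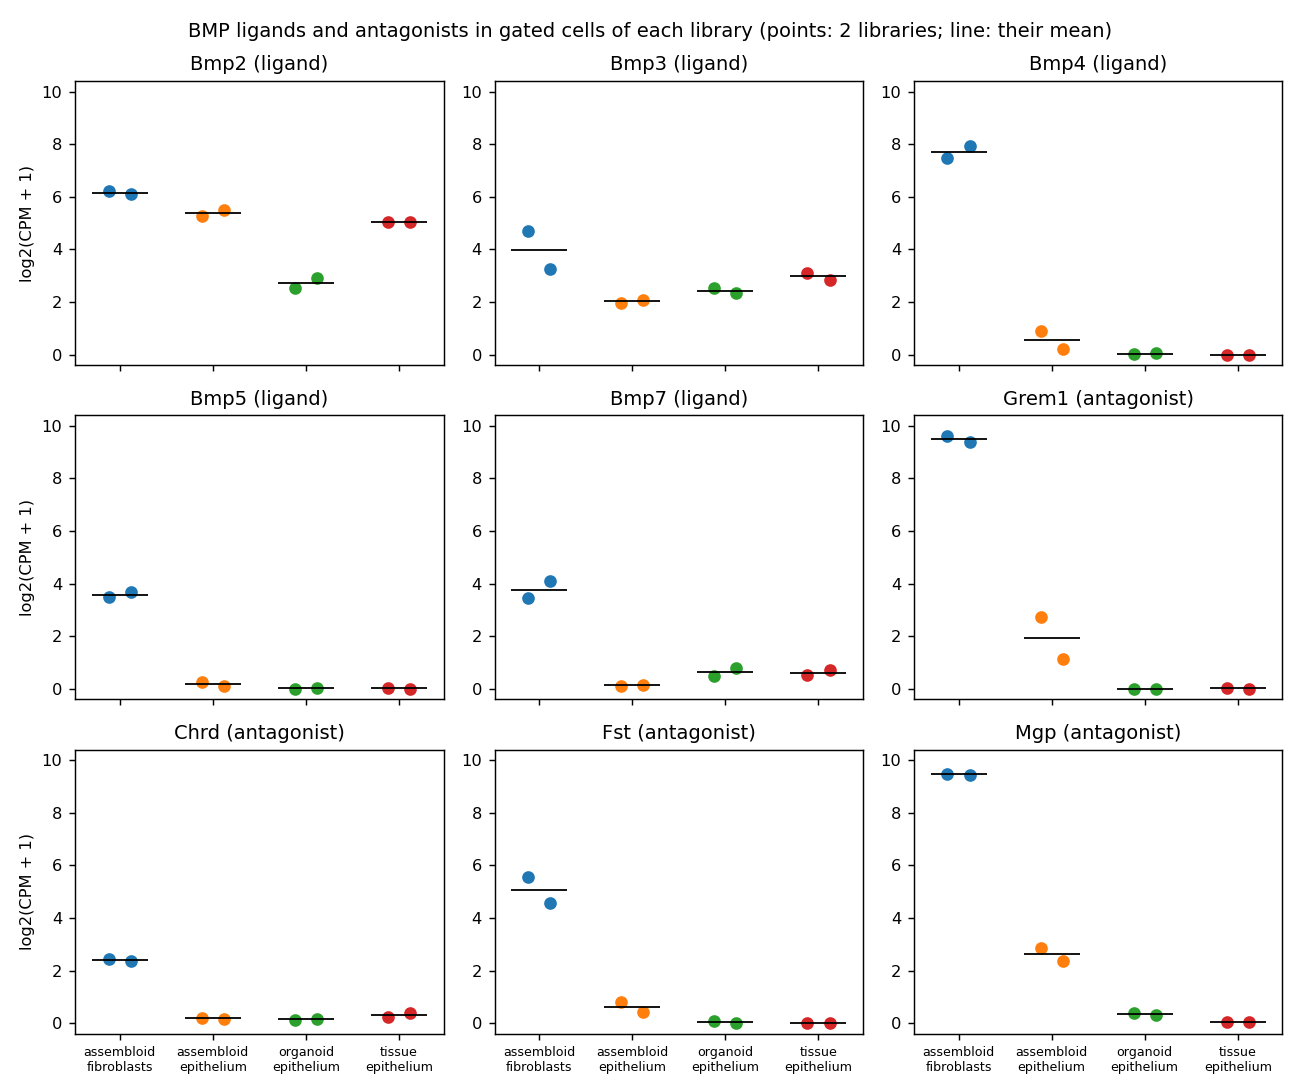
Level of each gene on the log2(CPM + 1) scale (vertical axis) in fibroblasts of assembloid stroma and in gated epithelial cells of assembloids, organoids and tissue (horizontal axis). Points are the 2 libraries of a group and the line is their mean. Bmp2 lies at 38.0 and 43.9 CPM in assembloid epithelium and at 4.78 and 6.44 CPM in organoids, while Grem1, Mgp, Bmp4 and Fst are high only in the fibroblast column.

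The other genes of the pathway were set in the same comparison across libraries, where 73% of all genes passed and 33.8% were higher. Of 14 tested among the other secreted antagonists and modulators, 11 were higher in fibroblasts and 0 lower, among them Fstl1 (6.54 on the log2 scale) and noggin (Nog, 5.97). Of 8 other BMP and GDF ligands tested, 5 were higher, led by Gdf6 (124 and 140 UMIs against 0 and 0), Gdf10 (8.26) and Gdf11 (5.26), and Bmp8b (-9.90) and Bmp8a (-4.57) were lower. Of the 3 proteases of the family that cuts chordin, Bmp1 (6.29) and Tll1 (4.17) were higher and Tll2 (0 and 2 UMIs against 75 and 11) was lower. Among 11 response genes tested, 9 were higher and 0 lower, led by Id4 (6.53), Atoh8 (6.53) and Msx1 (5.66). Of 10 receptors and co-receptors tested, 7 were higher and 3 lower, and of 5 activin subunits 3 were higher and 2 lower. Inside the assembloid epithelial libraries, without a block, 10 of 13 such antagonists were higher and 0 lower, 3 of 6 ligands higher and 1 lower, 2 of 3 proteases higher and 0 lower and 9 of 11 response genes higher and 0 lower, where 22.5% of all genes were higher. There Bmp8a (-1.71, adjusted p = 0.062) and Tll2 (-0.75, adjusted p = 0.68) did not pass. Of 10 receptors and co-receptors 6 were higher and 1 lower inside these libraries, and of 5 activin subunits 3 were higher and 1 lower, with and without a block. With the library as a block 11 antagonists were higher, 2 ligands were lower, since Bmp8a then passed (adjusted p = 0.0496), and 1 response gene was lower, where 23.3% of all genes were higher.

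Within the stroma the fibroblasts were placed on a marker axis, since the study sets telocytes, the Foxl1 and Wnt5a fibroblasts that lie under the epithelium, against trophocytes, the Cd34 and Rspo3 fibroblasts below the crypts. The 4 ligands Bmp2, Bmp4, Bmp5 and Bmp7 were higher at the telocyte end, and Grem1, Mgp and Chrd at the trophocyte end, in both stromal libraries. A cell was called telocyte-like where its telocyte score exceeded its trophocyte score by 1 standard deviation, and trophocyte-like in the opposite case. This gave 1793 and 2208 telocyte-like and 1945 and 2574 trophocyte-like cells. Scores were standardized over the fibroblasts of each library, so the limits were relative to it and the cell numbers do not measure abundance. The axis is a range and not a border between types: 1529 and 1688 cells lay within 0.25 of a limit. Median depth was 15652 and 16514.5 UMIs in telocyte-like cells and 13364 and 11130 in trophocyte-like cells, and its part in the result was not tested.

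Bmp7 was at 29.3 and 44.0 CPM in telocyte-like cells and at 1.62 and 1.17 CPM in trophocyte-like cells, a ratio of 18.1 and 37.6 within the same library. Bmp5 was at 30.2 and 31.4 CPM against 1.86 and 0.956 CPM, a ratio of 16.3 and 32.9. Bmp2 was at 215 and 192 CPM against 14.1 and 5.68 CPM, a ratio of 15.3 and 33.8. For all 3 genes the groups were far apart, and the trophocyte-like cells of replicate 2 were the lowest of the 4 sums. Bmp4 was less unequal, at 309 and 421 CPM against 113 and 129 CPM, a ratio of 2.74 and 3.26. Bmp3 was at 21.2 and 8.43 CPM against 20.2 and 4.32 CPM, so that the 2 libraries differed more than the ends of the axis.

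Grem1 was at 587 and 476 CPM in telocyte-like and 971 and 871 CPM in trophocyte-like cells, a ratio of 0.604 and 0.546. Its lowest levels were thus still above the highest level of any ligand of the list in the same cells. Mgp was at 307 and 404 CPM against 1111 and 827 CPM, a ratio of 0.276 and 0.488. Chrd was at 2.58 and 2.08 CPM against 6.35 and 6.54 CPM, a ratio of 0.406 and 0.318. Fst went the other way, at 68.5 and 31.9 CPM against 33.3 and 11.9 CPM, a ratio of 2.06 and 2.67.

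Tested over the 2 libraries without a term for the library, 2 of the 9 genes passed, Bmp7 (log2 fold change 4.63 ± 0.29 SE, adjusted p = 0.047) and Bmp5 (4.37 ± 0.30, adjusted p = 0.048), where 0.091% of 14283 genes passed. Each library gives 1 telocyte-like and 1 trophocyte-like sum, and with the library as a block 8 of the 9 passed, where 9.54% of genes did. In that fit the adjusted p was 0.0013 for Bmp7 and Bmp5, 0.0017 for Bmp2 (4.39), 0.0042 for Bmp4 (1.49), 0.0081 for Fst (1.13), 0.012 for Chrd (-1.57), 0.013 for Mgp (-1.54) and 0.022 for Grem1 (-0.89), and Bmp3 did not pass (adjusted p = 0.26). Without the block those 6 added genes had adjusted p between 0.065 for Bmp2 and 0.36 for Fst. With library totals in place of scaling factors 0 of the 9 passed, with Bmp5 and Bmp7 both at an adjusted p of 0.058.

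The few fibroblasts caught in the assembloid epithelial libraries gave a check in other libraries, with the limits set anew within each library. These held 138 and 117 telocyte-like and 149 and 123 trophocyte-like cells. The ratio was 2.12 and 3.20 for Bmp4, 4.54 and 3.32 for Bmp2, 0.795 and 0.787 for Grem1 and 0.0788 and 0.134 for Mgp, each on the same side as in the stromal libraries. For Bmp2 these came from 23 UMIs against 6 and 18 against 6. Bmp5 had 39 UMIs against 1 in replicate 1 and 77 against 0 in replicate 2, and Bmp7 had 4 against 0 and 26 against 1. Fst was on the other side there, but from few UMIs, with 10 against 16 (0.740) and 10 against 14 (0.790). Chrd was on the same side in replicate 1 alone, with 3 UMIs against 4 (0.888) and 6 against 5 (1.33). With all 4 libraries fitted and the library as a block, 7 of the 9 passed (6.48% of genes), the exceptions being Fst and Bmp3.

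By the levels given above, Bmp2, Bmp3, Bmp4, Bmp7 and Fst were lower in both sets of these stray fibroblasts than in either stromal library. Bmp5 and Mgp were higher in both, Grem1 was higher in replicate 1 and inside the stromal range in replicate 2, and Chrd was above the stromal levels in replicate 1 and below them in replicate 2. These cells had passed through an epithelial preparation and had median depths of 6387.5 and 10696 UMIs, against 14881 and 13230. Preparation, depth and software version cannot be told apart here. The share of all genes that lay outside the range of the stromal libraries was not computed, so these shifts cannot be read as a trait of the members.

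**Figure D2:**
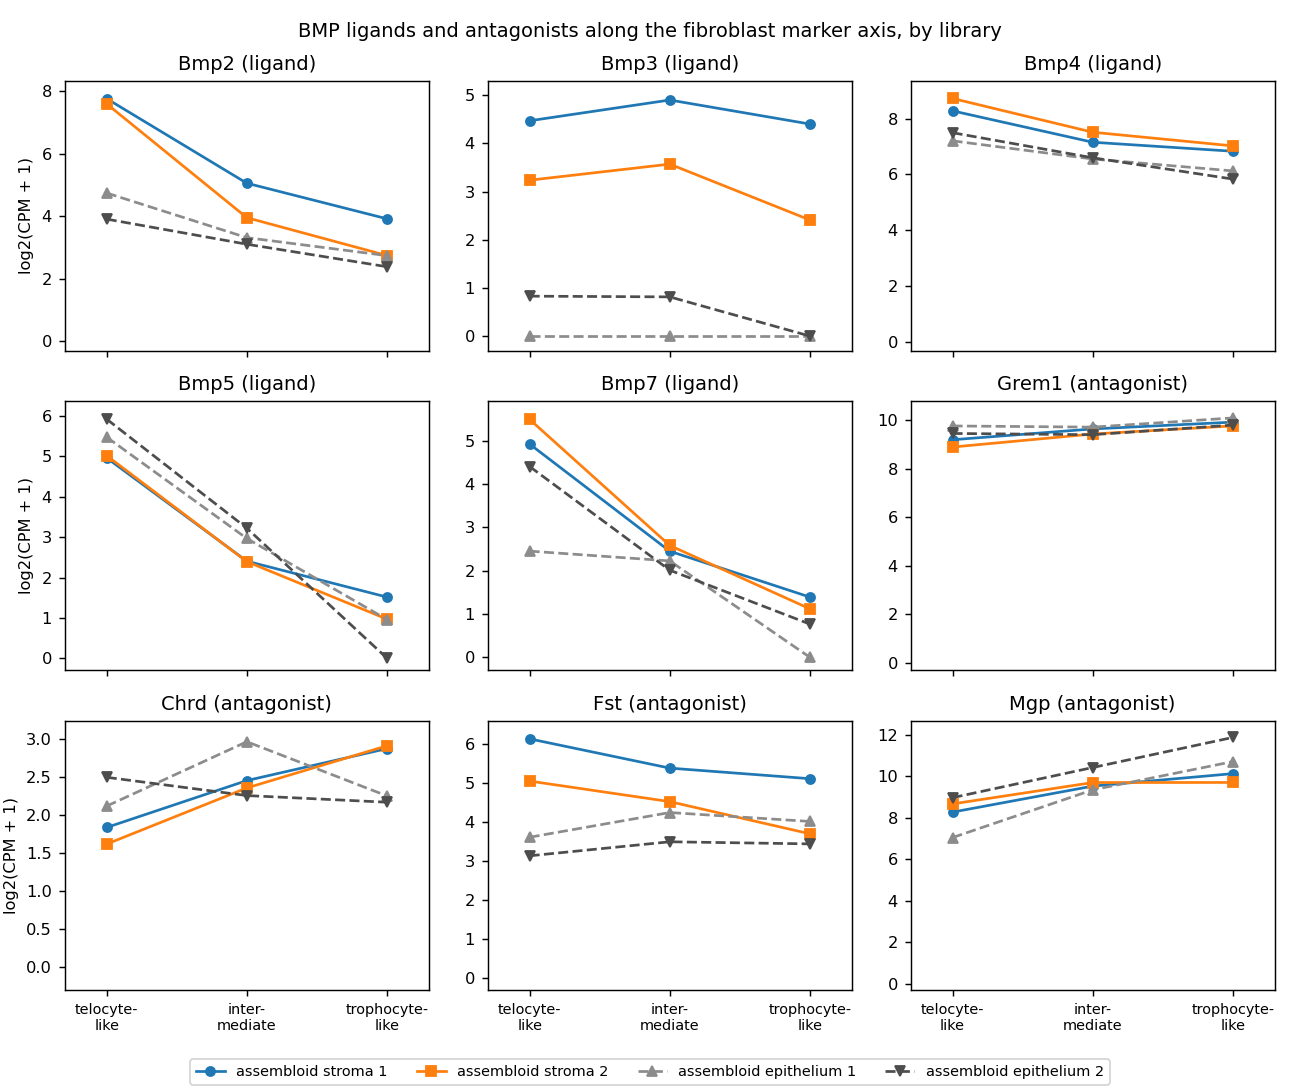
Level of each gene on the log2(CPM + 1) scale (vertical axis, its own range in each panel) in telocyte-like, intermediate and trophocyte-like fibroblasts (horizontal axis). Solid lines are the 2 stromal libraries and dashed lines are the fibroblasts of the 2 assembloid epithelial libraries. Bmp2, Bmp4, Bmp5 and Bmp7 fall from left to right in each library, and Grem1 and Mgp are higher at the right than at the left end in each library. Fst falls only along the solid lines, and each end of its dashed lines rests on 10 to 16 UMIs.

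Telocyte-like cells, called by limits relative to each library, were 19.9% and 24.4% of the cells of the stromal libraries. Over all genes these cells held 31387673 of 161750159 UMIs in replicate 1 and 40450640 of 139755286 in replicate 2. Their part was 61.5% and 81.2% of the Bmp2 UMIs, 66.1% and 78.9% of the Bmp5 UMIs and 46.4% and 79.3% of the Bmp7 UMIs. They held 40.3% and 52.3% of the Bmp4 UMIs but 9.74% and 17.4% of the Mgp UMIs. In stromal replicate 1 the squamous-like cells held 24.2% of the Bmp7 UMIs, against 1.38% in replicate 2.

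The share of cells with a UMI was compared after every cell was thinned to 2000 UMIs. Grem1 was then seen in 59.9% and 55.2% of fibroblasts (95% exact binomial intervals 58.8 to 61.0% and 54.1 to 56.2%, which cover counting error alone), and without thinning in 92.3% and 88.6%. Bmp4 was seen in 23.9% and 29.8%, Mgp in 31.4% and 36.2% and Bmp2 in 7.79% and 5.94%. In another class of the same libraries, the squamous-like cells, Grem1 was seen in 2.90% and 2.63% and Bmp4 in 1.45% and 0 of 38 cells (upper exact limit 9.25%). Mgp reached 17.8% in replicate 1 and 5.26% in replicate 2 there. Median depths of that class were 21714 and 29698.5 UMIs, against 14881 and 13230 in fibroblasts. Whether squamous-like cells lack the members was not tested. Bmp5 (1.75% and 1.94%), Bmp7 (1.59% and 2.21%) and Chrd (0.879% and 0.895%) were seen in few fibroblasts at this depth. In telocyte-like cells Bmp2 was seen in 20.7% and 18.3% and in trophocyte-like cells in 2.01% and 0.738%. In the squamous-like cells it was seen in 2.11% and in 1 of 38 cells (2.63%), so the trophocyte-like shares were no higher than those of this other class. Bmp5 was seen there in 0 of 759 cells (upper exact limit 0.485%), Chrd in 0.264% and Bmp7 in 4.48% in replicate 1, the last above the fibroblast share.

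UMIs of a ligand and of an antagonist were often found under the same fibroblast barcode. Thinned to 5000 UMIs, 7405 and 8441 fibroblasts could be read, and 46.3% and 45.5% of them held a UMI of at least 1 of the 5 ligands and of at least 1 of the 4 antagonists. A further 43.5% and 41.8% held an antagonist alone and 6.66% and 9.32% a ligand alone. In the squamous-like cells of the same libraries, 9.45% of 751 and 5.26% of 38 held both and 33.4% and 26.3% an antagonist alone, so antagonist UMIs, mostly of Mgp in replicate 1 (248 cells, against 89 with Grem1), also lay outside fibroblasts. The balance changed along the axis: ligand without antagonist was found in 15.2% and 24.1% of telocyte-like cells and in 2.24% and 2.86% of trophocyte-like cells, and antagonist without ligand in 23.5% and 20.6% against 55.8% and 55.2%. Shares of both depend on depth, and without thinning 72.1% and 69.6% of fibroblasts held both kinds. No doublet caller was run, so a barcode that caught a pair of fibroblasts counts here as 1 cell.

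By pair, the cells that held both were set against the number expected if the 2 genes were found independently. For Bmp4 and Grem1 the ratio of observed to expected was 1.01 and 0.962, with 2516 and 3008 cells that held both, so 80.4% and 72.1% of cells with Bmp4 also held Grem1. For Bmp2 and Grem1 it was 0.932 and 0.796, and 73.8% and 59.6% of cells with Bmp2 held Grem1. With Grem1, Bmp5 was at 0.906 and 0.717 and Bmp7 at 0.833 and 0.706. The pairs with Mgp also lay below 1, at 0.738 and 0.624 with Bmp2, 0.786 and 0.826 with Bmp4, 0.473 and 0.357 with Bmp5 and 0.485 and 0.487 with Bmp7. Bmp2 with Fst was at 1.49 in replicate 1 and 0.974 in replicate 2, so its direction was not shared. Bmp3 and Grem1 were at 1.02 and 1.01. Among telocyte-like cells alone the ratio with Mgp was 0.763 and 0.749 for Bmp2 and 0.743 and 0.769 for Bmp4, and among trophocyte-like cells it was 0.910 and 1.02 for Bmp2 and 0.886 and 0.934 for Bmp4. Without thinning the ratio of Bmp2 with Mgp was 0.937 and 0.939. These ratios describe the cells of 2 libraries, and no test was run on cells.

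**Figure D3:**
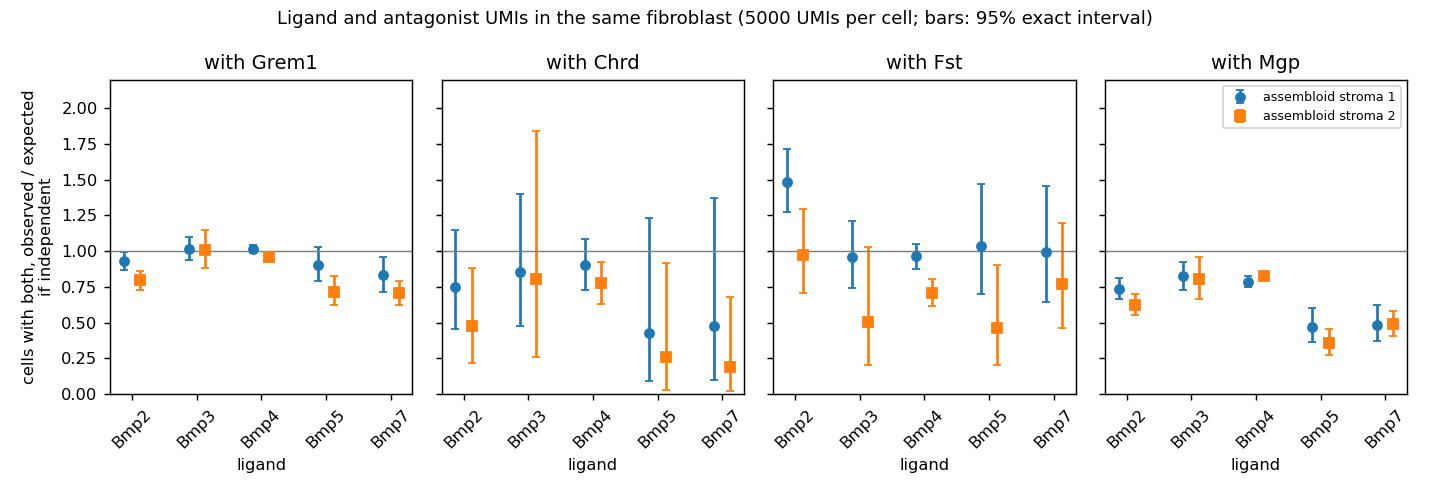
Ratio of observed to expected cells with both genes (vertical axis) for each ligand (horizontal axis) with Grem1, Chrd, Fst and Mgp, in fibroblasts thinned to 5000 UMIs. Points are the 2 stromal libraries, bars are 95% exact intervals of the observed count divided by the expected count (counting error alone), and the line marks independence. All 5 ligands lie below the line with Mgp in both libraries, while Bmp3 and Bmp4 lie near it with Grem1.

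Counted by Grem1 UMIs in the thinned cell, Bmp7 was seen in 6.04% of fibroblasts with 0 Grem1 UMIs and in 1.16% of those with 11 or more in replicate 1, and in 10.99% and 1.28% in replicate 2. Bmp5 went from 5.58% to 1.59% and from 7.97% to 1.12%, and Bmp2 from 17.8% to 8.97% and from 16.9% to 9.60%. Bmp4 went from 39.9% to 41.8% in replicate 1 and from 55.0% to 39.5% in replicate 2. Bmp5 and Bmp7 were also lower in the cells with the most Grem1 in both libraries without thinning, at 5% mitochondrial UMIs and with a stricter gate. For Bmp2 the gap was small without thinning, at 29.1% and 26.3% in replicate 1 and 24.6% and 18.7% in replicate 2. Bmp4 then went from 51.3% to 69.4% and from 69.2% to 67.8%, and at 5% mitochondrial UMIs from 44.7% to 40.3% in replicate 1, so its direction in replicate 1 depended on the setting.

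In the epithelium Bmp2 was the member with the most UMIs in each of the 6 libraries, and it was lower in organoids than in the other groups. The comparisons of assembloid and organoid with tissue share the tissue libraries. Bmp2 was at 38.0 and 43.9 CPM in assembloid epithelium, at 31.5 and 31.9 CPM in tissue and at 4.78 and 6.44 CPM in organoids. It was lower in organoids than in tissue (log2 fold change -2.28 ± 0.18 SE, adjusted p = 3.6e-05) and than in assembloids (-3.05 ± 0.18, adjusted p = 2.9e-05), and it remained past the threshold in both under every alternative tried. Assembloid and tissue epithelium did not overlap (0.77 ± 0.17, adjusted p = 0.0062), but that call was lost with library totals in place of scaling factors (0.37, adjusted p = 0.21) and without either tissue library (adjusted p = 0.096 and 0.081). After thinning to 2000 UMIs, Bmp2 was seen in 7.15% and 7.64% of assembloid, 6.30% and 6.52% of tissue and 1.26% and 1.37% of organoid epithelial cells, and the 16426, 6009, 2429, 2762, 4752 and 4529 cells deep enough left out 3522, 567, 2222, 1519, 101 and 3008 shallower ones.

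Bmp3 was at 7.68 and 6.10 CPM in tissue, 4.74 and 4.05 CPM in organoids and 2.90 and 3.24 CPM in assembloids. It fell below tissue in assembloids (-0.76 ± 0.27, adjusted p = 0.046), a call lost in 6 of the alternatives, and the organoid level was not told apart from tissue (-0.40 ± 0.27, adjusted p = 0.26). Bmp7 was at 0.427 and 0.651 CPM in tissue and 0.395 and 0.732 CPM in organoids, and at 0.0781 and 0.113 CPM in assembloids. It was lower in assembloids than in tissue (-2.09 ± 0.53, adjusted p = 0.011) and higher in organoids than in assembloids (2.34 ± 0.51, adjusted p = 0.0056). Both calls rested on few UMIs of Bmp7, with 11 and 12 in assembloids, 20 and 24 in tissue and 74 and 67 in organoids. Without the gate, so that stray fibroblasts were counted, both Bmp7 calls were lost (-0.42, adjusted p = 0.51, and 0.69, adjusted p = 0.245), and the first was also lost without tissue replicate 2 (-1.77, adjusted p = 0.094). Chrd, at 8 and 12 UMIs in tissue, 22 and 12 in assembloids and 19 and 11 in organoids, passed in none of the 3 comparisons.

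Grem1, Mgp, Bmp4 and Fst were called higher in assembloid than in tissue epithelium, from few UMIs. In the 2 tissue libraries Grem1 had 1 and 0 UMIs, Mgp 1 and 1, Bmp4 0 and 0 and Fst 0 and 0, among 83773940 UMIs. In assembloids Grem1 had 800 and 126 UMIs, Mgp 885 and 440, Bmp4 120 and 16 and Fst 104 and 37. The pooled ratio was 314 for Grem1 (95% exact interval 56.3 to 12433) and 225 for Mgp (62.2 to 1860), and Bmp4 was at least 14.0-fold and Fst at least 15.2-fold higher, against 3 UMIs over the tissue group. The intervals given here cover counting error alone and not the spread between libraries. Replicate 1 of the assembloids stood above replicate 2, which alone gave a ratio of 99.8 for Grem1 (17.6 to 3971) and at least 4.22-fold for Bmp4 and 9.77-fold for Fst. Their adjusted p was 0.00093, 4.3e-05, 0.0072 and 0.0032. In all 5 members were higher and 2 lower of 8 tested in this comparison, where 50.3% of 19065 genes passed (26.7% higher and 23.6% lower), and the median of the members was 4.44, or 2.29 with Bmp4 and Fst at their bound, against 0.03 over all genes. Without tissue replicate 2, 4 of the 8 passed.

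All 4 of these genes were higher in fibroblasts than in epithelium, and the RNA of fibroblasts was present in the assembloid epithelial gate, where the fibroblast markers summed to 0.71 and 0.42 UMIs per 10000 against 0.01 and 0.02 in tissue epithelium 1 and tissue epithelium 2. To set a scale, the number of UMIs each member would have if fibroblast RNA alone were its source was taken from fibroblast genes (Sparc, Col5a1, Col5a2, Mmp2 and Postn) in the fibroblasts of the same library. Observed over expected UMIs were 0.830 and 0.790 for Grem1, 1.05 and 1.15 for Mgp, 1.16 and 0.706 for Bmp4 and 1.80 and 2.26 for Bmp5. The expected number assumes that such RNA has the profile of the fibroblasts caught in that library. The part of fibroblast RNA in the calls of assembloids against tissue, and of organoids against assembloids, was not tested. Bmp7 (3.68 and 8.53), Chrd (4.04 and 14.2) and Fst (6.37 and 18.0) were above it from 11 to 104 UMIs, and Bmp2 was 428 and 2624 times above it.

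**Figure D4:**
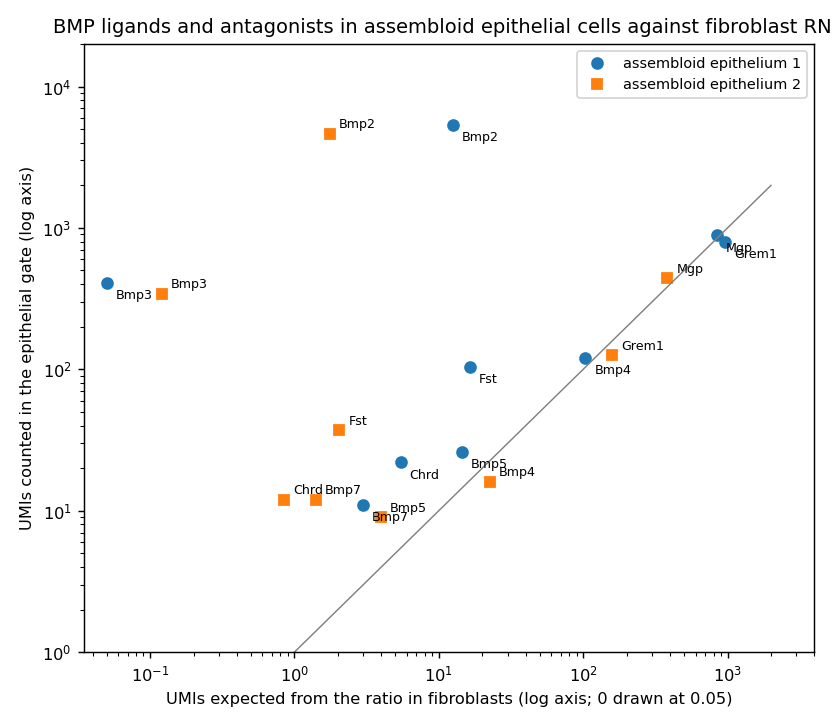
UMIs of each gene counted in the epithelial gate of the 2 assembloid epithelial libraries (vertical log axis) against the number expected from the ratio to 5 fibroblast genes in fibroblasts of the same library (horizontal log axis, an expected 0 drawn at 0.05). The line marks equality. Grem1, Mgp and Bmp4 lie on or near the line, and Bmp2 lies far above it, with 5353 and 4642 UMIs counted.

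In organoids 2 of 8 members passed against tissue, where 47.9% of genes did (24.6% higher and 23.3% lower), with a median of -0.07 over the 8, or -0.65 without Bmp4 and Fst, against 0.06 over all genes. These were Bmp2, above, and Mgp, at 59 and 23 UMIs in organoids (pooled ratio 12.3, 95% exact interval of counting error alone 3.30 to 103, adjusted p = 0.0031). The Mgp UMIs came from 23 and 15 cells, and 1 cell held 15 and 5 of them. Against assembloids, 6 of 8 passed, where 52.9% of genes did (24.5% higher and 28.4% lower). Bmp2, Grem1, Mgp, Fst and Bmp4 were lower in organoids and Bmp7 was higher, with a median of -3.59 against -0.01 over all genes. In the assembloid gate Grem1, Mgp and Bmp4 stood near the number expected from fibroblast RNA, as given above. The part of that RNA in these calls and in this median was not tested. Of these, Fst had 9 and 1 UMIs, Bmp4 4 and 3 and Grem1 1 and 0 in organoids. The Bmp4 call was lost without either organoid library, where its log2 fold change was -4.26 and -4.53.

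Of the response genes of the pathway, 6 of 10 were lower in assembloid than in tissue epithelium, where 23.6% of all genes were lower and 26.7% higher, led by Smad6 (-3.58), Id4 (-2.67) and Id1 (-1.84), and 2 were higher, Msx1 (23 and 20 UMIs against 0 and 0) and Smad9 (1.66). Between organoid and tissue epithelium, where 23.3% of all genes were lower and 24.6% higher, 3 were lower, Id4 (-4.13), Smad6 (-2.87) and Smad7 (-2.36), and 3 were higher, Msx1 (24 and 16 UMIs against 0 and 0), Id2 (1.85) and Atoh8 (1.74). Of 10 receptors and co-receptors tested, 4 were lower in assembloids than in tissue, led by Bmpr1b (-3.75), Rgma (-3.38) and Rgmb (-1.99), and 1 was higher, Eng (2.67, from 46 and 52 UMIs against 5 and 2). In organoids 5 were lower, led by Bmpr1b (-4.84), Rgma (-3.98) and Acvrl1 (-2.23), and 0 were higher. Of the activin subunits, Inhba, part of the activin that follistatin binds, had 381 and 47 UMIs in assembloids against 1 and 0 in tissue, Inhbe 164 and 341 against 0 and 0 and Inhbc 237 and 132 against 2 and 0, and all 3 were called higher. Inhba was abundant in fibroblasts (13395 and 10118 UMIs in the stromal libraries), and by the same ratio to fibroblast genes its observed over expected UMIs in assembloid epithelium were 1.11 and 0.962. Inhbe had 34 and 29 UMIs in the fibroblasts of the stromal libraries and Inhbc 0 and 0, and in the fibroblasts of the assembloid epithelial libraries they had 0 and 0 and 0 and 5.

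The study places Bmp2 in the surface epithelium, so colonocyte-like cells were set against the other gated epithelial cells of the same library. Bmp2 was at 73.9 and 80.4 CPM in colonocyte-like cells of assembloids, against 34.0 and 39.1 CPM in the other cells, and at 68.1 and 59.0 CPM in those of tissue, against 23.4 and 25.4 CPM. It was higher in colonocyte-like cells in all 4 libraries, by 1.27 ± 0.13 on the log2 scale in assembloids (adjusted p = 0.0025) and 1.71 ± 0.13 in tissue (adjusted p = 0.00022). It was the only member of 8 tested that passed in assembloids, where 20.7% of 16199 genes did, and 1 of 3 in tissue, where 36.1% did. The difference between the 2 contrasts was -0.44 ± 0.18 (adjusted p = 0.26) and 0 of the 8 members passed it in edgeR, where 1.57% of genes did, nor did any of the 4 members to which DESeq2 gave an adjusted p (Bmp2, Bmp3, Grem1 and Mgp), although Bmp2 and Chrd had an unadjusted p of 0.041 and 0.0094. With the library as a block 6867 genes passed in assembloids and 2221 in the difference, and the members called were as many. Without tissue replicate 1 the tissue value of Bmp2 was 1.46 (adjusted p = 0.051).

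Colonocyte-like cells were far deeper than the cells in no named epithelial class, with medians of 17155 and 12986 UMIs in tissue against 1212.5 and 2453. After thinning to 2000 UMIs, Bmp2 was seen in 13.0% and 12.4% of colonocyte-like cells of tissue against 5.12% and 5.22% of the cells in no named class, and in 12.6% and 12.8% against 6.47% and 6.68% in assembloids. Thinning left out 2079 of 3562 and 1346 of 3070 tissue cells in no named class against 45 of 476 and 84 of 566 colonocyte-like cells, and in assembloids 3086 of 15515 and 503 of 4872 against 101 of 1786 and 11 of 708. The order was the same among the cells deep enough. Organoids had 51 and 19 colonocyte-like cells, in which Bmp2 was at 23.3 and 29.2 CPM, against 4.78 and 6.44 CPM in all their gated cells.

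Bmp3 had its highest epithelial level in the stem-like cells of tissue, at 14.8 and 10.6 CPM, above colonocyte-like cells (9.45 and 7.74 CPM) and goblet-like cells (4.16 and 4.34 CPM). In assembloids its stem-like level was 4.83 and 4.83 CPM. The other calls in tissue colonocyte-like cells were Bmp3 (0.74 ± 0.23, adjusted p = 0.041), which was lost in 5 alternatives, and Chrd (3.98 ± 0.75, adjusted p = 0.0050). Chrd rested on 6 of 8 and 9 of 12 UMIs, each in a cell of its own, and was lost without either tissue library (adjusted p = 0.17 and 0.15). Bmp4 and Fst had no UMI in tissue and gave no estimate.

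**Figure D5:**
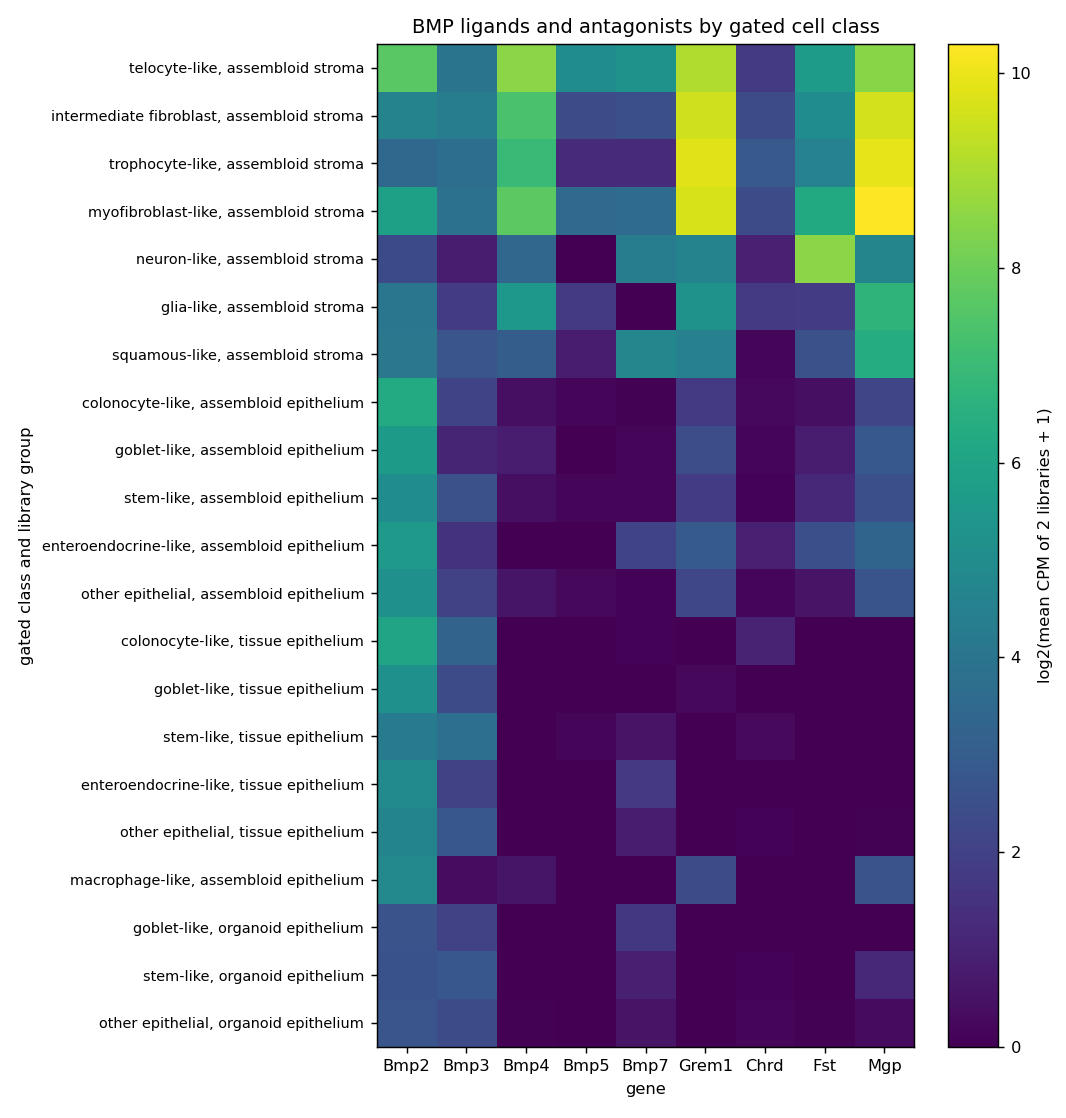
Colour gives the level of each gene (horizontal axis) as log2(mean CPM of 2 libraries + 1) in each gated class and library group (vertical axis). The fibroblast classes hold most of the signal of Bmp4, Bmp5, Grem1 and Mgp, Bmp2 is seen in fibroblast and epithelial classes alike, and Fst is highest in neuron-like cells, at 387 and 345 CPM.

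Over 47 sums of a class in a library (at least 50 cells each), the genes whose log2 level was most like that of a member differed by member. The sums share libraries and hold fibroblast and epithelial sums together, and no value was computed within either kind alone. Bmp4 was most like Foxf1 (Pearson's r = 0.99), Col15a1 (0.99) and Lgi2 (0.98), Grem1 most like Mmp3 (0.99), and Bmp5 most like Trpa1 (0.95). Bmp7 was most like Bean1 (0.81), Fst most like Tceal5 (0.92), and Chrd most like Vgll3 (0.93). Bmp2 (Ifngr1, 0.60) and Bmp3 (Cebpa, 0.74) had no gene as close among 13331 compared. Among the members Grem1 and Mgp were most alike (0.98), and Bmp2 was near 0 with Grem1 (-0.01) and Bmp4 (0.05).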

How the data were processed

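The deposited matrices are raw UMI counts that the authors obtained with Cell Ranger (6.0.1 for stroma, 7.1.0 for epithelium, per the file headers; the labels' processing notes name version 6 and mm10) without further normalization. The limits that the study states for its stromal cells were applied to the cells of all libraries (500 genes or more, mitochondrial UMIs no higher than 10%). For epithelium the study reports cell numbers after filtering that differ from those kept here, so the epithelial cells are not the same set. The 9 members, the marker and pathway lists and the gate limits were chosen with earlier results of these data known. Scores were UMIs of a marker list per 10000 UMIs. Fibroblasts scored at least 20 for fibroblast and under 20 for epithelial markers. Epithelial cells scored at least 20 for epithelial, under 5 for fibroblast and under 10 for immune markers. Telocyte-like and trophocyte-like cells differed by more than 1 in standardized scores, and colonocyte-like cells exceeded 1. Scores were standardized over the fibroblasts or the epithelial cells of each library, so these limits are relative to it. No doublet caller was run. Cells that met the limits of no gate, or showed markers of more than 1 class, were left out of the gates. In assembloid epithelium 1 these were 8776 cells (29.8%), with a median of 2360 UMIs against 4210 in its epithelial gate. How many of them held markers of a second class was not counted.

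Summed UMI counts per library and gate were tested with edgeR 4.0.16 (quasi-likelihood, TMM scaling, filterByExpr) in R 4.3.3, with p-values adjusted by Benjamini and Hochberg over all genes tested and a threshold of 0.05. Each error is an SE derived from the F statistic. Tested on simulated counts with 200 genes changed 4-fold, the assembloid against tissue fit recovered 64% with 6 false calls. The changed genes were drawn from those above a limit of expected UMIs in the smallest library, and all genes had the same simulated spread. The result therefore does not cover members with few UMIs. Fits used 2 libraries a group, and all epithelial groups shared 1 estimate of the spread. Replicate numbers did not pair the libraries (correlation of their deviations -0.0113, 0.056, -0.0158 and -0.0086). Telocyte-like and trophocyte-like sums of the same library were paired by the library itself (0.5761). Shares and co-detection used cells thinned to 2000 and 5000 UMIs with a fixed seed. Alternatives were DESeq2 1.42.0, no filter, library totals in place of TMM, the replicate block, each replicate left out, at most 5% mitochondrial UMIs, at least 1000 genes, a stricter gate and no gate. The fits with the fibroblasts of the assembloid epithelial libraries were added after seeing the data. Named genes were the 9 members and, from each pathway list, up to 3 called genes with the highest and 3 with the lowest log2 fold change. A result that this rule would name is not reported here. Genes whose level resembled a member came from sums of at least 50 cells.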

Additional observations from a re-analysis of the deposited data

Results flagged for a closer look

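Classes outside the comparisons above held members at levels above the fibroblasts of the same stromal library, with no test, since cells of a library are not replicates. Fst was at 387 and 345 CPM in neuron-like cells (48 and 80 cells), against 45.7 and 22.5 CPM in fibroblasts, and these cells held 3.83% and 10.3% of the stromal Fst UMIs. Fst was also at 66.8 and 83.8 CPM in myofibroblast-like cells (90 and 66 cells). Grem1 was at 862 and 788 CPM and Mgp at 978 and 1525 CPM in the same myofibroblast-like cells, against 787 and 669 CPM and 715 and 694 CPM in fibroblasts. Bmp7 was at 25.8 and 26.0 CPM in squamous-like cells (762 and 38 cells) and at 21.3 and 17.0 CPM in neuron-like cells, against 9.95 and 16.2 CPM in fibroblasts.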

How the results depend on the processing

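The fold changes of the 9 genes kept their direction and side of the threshold in 658 of 731 recomputed values, passed the threshold newly in 22, lost it in 29 and changed sign in 22. Of the last, those called were Bmp2 and Bmp3 between the fibroblasts and the epithelium of the assembloid epithelial libraries. With library totals in place of scaling factors the median of all genes moved from 0.03 to -0.37 between assembloid and tissue epithelium, from 0.06 to -0.15 between organoid and tissue, from -0.01 to 0.16 between organoid and assembloid, from -0.12 to 0.03 between fibroblasts and epithelium, from -0.15 to -0.34 in assembloid and -0.12 to -0.46 in tissue colonocyte-like cells, and from -0.04 to 0.10 in the difference of these. The share of calls that were higher moved from 53.09 to 36.9% between assembloid and tissue, from 48.64 to 23.15% and 50.06 to 25.45% in the colonocyte contrasts and from 48.43 to 66.01% in their difference. With 2 libraries a group, genes with few UMIs limit what could be called. The causes of the changes below were not tested.

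Inside the assembloid epithelial libraries the fibroblast difference was -2.18 for Bmp2 and -3.42 for Bmp3 (fitted from 0 and 3 UMIs), and -2.19 and -3.45 with the replicate block by library, with 8522 and 8994 genes called against 14155 in the comparison across libraries, and 9 members in each. The sign changed for Chrd between assembloid and tissue without the gate (1.09) and within the range of -0.87 to 0.08 over left-out replicates (0.08 without tissue replicate 2), and between organoid and tissue for Bmp7 (-0.028 to 0.60 over left-out replicates, below 0 without organoid replicate 2 and without tissue replicate 1, and -0.27 at 5% mitochondrial UMIs) and Grem1 (-2.97 to 2.04, above 0 without tissue replicate 1, and 1.78 at 5%). In assembloid colonocyte-like cells it changed for Grem1 (-0.58 to 0.23) and Mgp (-1.03 to 0.13) without assembloid replicate 1 and for Chrd (-0.055 to 0.88) without replicate 2, and in tissue for Grem1 (1.05) and Mgp (0.043) with DESeq2. In the difference of the contrasts it changed for Bmp7 (-2.06 to 6.20, below 0 without assembloid replicate 2), Grem1 (-1.43 with DESeq2, -0.36 to 2.79 over left-out replicates, below 0 without tissue replicate 1, and -0.37 at 5%) and Mgp (-0.50 with DESeq2, -0.45 at 5%).

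Between telocyte-like and trophocyte-like cells, 13 genes and 2 members were called. With DESeq2 these were 882 and 7, without a filter 379 and 6, with library totals 3 and 0, with the replicate block by library 1362 and 8, at 5% mitochondrial UMIs 21 and 1, with the fibroblasts of 4 libraries and the block 900 and 7, and 92 genes with a stricter gate. With 1 stromal library left out no residual degrees of freedom remain, and no value was computed. Genes called in assembloid colonocyte-like cells (3347) became 6867 with the block, 1902 at 5% and 5040 with a stricter gate. In tissue they went from 5849 to 3584 at 5%, with 1 member. For the difference, 254 genes became 992 with DESeq2, 689 without a filter, 153 with library totals, 2221 with the block, 106 at 5% and 607 with a stricter gate. The numbers of the other epithelial and stromal libraries do not pair them, and with them as a replicate block 9444, 8985, 9948 and 13481 genes were called against 9589, 9132, 10085 and 14155, with the same number of members (7, 2, 6 and 9).

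With each replicate left out, calls ranged from 5335 to 10150 genes and 4 to 7 members between assembloid and tissue, from 5300 to 9690 genes and 2 to 2 members between organoid and tissue, from 7725 to 9571 genes and 5 to 7 members between organoid and assembloid, and from 11395 to 13143 genes and 8 to 9 members between fibroblasts and epithelium. In assembloid colonocyte-like cells they ranged from 395 to 4110 genes and in tissue from 206 to 7652 genes and 0 to 3 members, the lowest of each without tissue replicate 1. For the difference they ranged from 0 (without either tissue library) to 1061 genes. Organoid against assembloid Bmp4 was lost without either organoid library (adjusted p = 0.090 and 0.077).

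Without thinning, the share of fibroblasts with a UMI was 25.8 and 19.02% for Bmp2, 63.7 and 68.4% for Bmp4, 92.3 and 88.6% for Grem1 and 63.7 and 67.8% for Mgp, and that of epithelial cells with Bmp2 was 17.6 and 33.9% (assembloid), 14.5 and 6.42% (organoid) and 16.0 and 16.0% (tissue). With a stricter gate it was 6.47 and 4.96% for Bmp2, 22.5% for Bmp4 in replicate 1 and 61.0 and 56.6% for Grem1. At 5% mitochondrial UMIs it was 6.90% for Bmp2 in replicate 2 and 56.2 and 52.3% for Grem1 in fibroblasts, and for Bmp2 6.47 and 6.97% in assembloid and 0.870 and 0.970% in organoid epithelium. Observed over expected without thinning was 0.962 for Bmp2 with Grem1 in replicate 2, 0.937 and 0.939 for Bmp2, 0.965 and 0.9498 for Bmp4 and 0.820 and 0.774 for Bmp7 with Mgp. Bmp2 with Mgp was 0.660 in replicate 1 at 5% and 0.711 in replicate 2 with a stricter gate.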

Other observations

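Members were also counted in minor classes of the other libraries, from few UMIs and with no test. In the endothelial-like cells of the stromal libraries (18 and 63 cells) Bmp2 was at 133 and 58.2 CPM, against 67.9 and 68.4 CPM in all passing cells of those libraries, from 33 UMIs in 3 cells and 75 UMIs in 11 cells. In organoids the enteroendocrine-like cells (5 and 14 cells) held Bmp7 at 32.6 and 46.4 CPM, from 3 and 7 UMIs, against 0.395 and 0.732 CPM in all gated epithelial cells.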
